A study of Mus musculus with 6 samples.

Results

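Integrin and laminin genes were described in RNA sequencing of mouse pancreatic islets that lacked the short-chain fatty acid receptor gene Ffar3 or were wild type. Members were chosen by gene symbol, as every numbered integrin alpha or beta subunit and every laminin alpha, beta or gamma chain, keeping those whose 6 libraries averaged 0.5 FPKM or more. FPKM counts fragments scaled by transcript length and by a measure of library depth, so levels of different genes in a library can be set side by side. Of 23179 gene rows, 31 matched by symbol (20 integrin and 11 laminin), and 24 of them reached the minimum (16 integrin and 8 laminin). Integrin alpha subunits with a letter in place of a number, such as Itgav, lie outside this rule and are given only as partners of members.

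Integrins are receptors made of an alpha and a beta subunit that span the cell membrane and tie the matrix outside the cell to actin or keratin filaments inside it. The pairing sets what is bound: subunits that pair with Itgb1 bind laminin, collagen or fibronectin, most pairs of Itgav bind matrix proteins with an arginine-glycine-aspartate sequence, and pairs with Itgb2 or Itgb7 belong to leukocytes. Laminins are trimers of an alpha, a beta and a gamma chain and form the sheet of the basement membrane. In mouse islets this membrane is known to be laid down largely by the endothelial cells of the capillaries, and endocrine cells attach to it through integrins.

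Mice were male, of the C57BL/6J strain and 10 to 14 weeks old, with the genotype wildtype (WT) or Ffar3-/- (KO), and each group had 3 libraries. Values given as a series of 3 are in the order of replicates 1, 2 and 3. Each library held islets pooled from 2 pancreata. The design text calls the replicates biological, and the labels give no Cre driver, isolation date or library batch. Any such difference between the groups cannot be told apart from genotype.

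The islet label was checked on endocrine genes: Iapp, a peptide of beta cells, was at 27415 to 36606 FPKM, and Gcg, the alpha cell hormone, at 6474 to 22807 FPKM. The insulin genes did not follow: Ins2 was listed at 0 in all 6 libraries, and Ins1 at 0 in WT and KO replicate 1 but at 43721 and 48334 FPKM in KO replicates 2 and 3. Ffar3 was at 4.69, 5.26 and 6.68 FPKM in WT and at 0, 0 and 0.105 FPKM in KO, which matched the labels. Summed FPKM of 22 acinar markers was 27752 to 43524 in WT, against 25996, 261117 and 556514 in KO, so KO replicates 2 and 3 stand apart from the other 4 libraries. Summed FPKM of 13 lymphocyte markers ranged over WT from 8.15 to 8.83, against 98.7, 189 and 19.1 in KO. No marker was listed at 0 in all 6 libraries. The sums of 12 beta cell, 14 duct, 14 endothelial and 14 stellate cell and pericyte markers were 38074 to 39852, 1199 to 1306, 176 to 223 and 42.5 to 45.5 FPKM in WT and 29925 to 36701, 1431 to 1971, 162 to 196 and 32.9 to 44.6 FPKM in KO. Of the markers tested, 0 of 22 acinar, 5 of 12 beta cell (all lower), 3 of 12 duct (all higher) and 3 of 3 Schwann cell markers (1 higher, 2 lower) were called. The same test, given below, called 37.7% of all rows. Total depth is unknown. By the commonest ratio among values under 0.06 FPKM, 1 FPKM stood for 59.5% as many fragments in KO replicate 3 and 89.4% as many in KO replicate 2 as in WT replicate 1, and for 108% to 119% in the other libraries, so low values of KO replicate 3 rest on the fewest fragments. In such bulk libraries fewer cells of a type and less RNA per cell cannot be told apart.

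Of the 24 members, 8 rose and 3 fell in KO (45.8%), against 37.7% called over all 12691 rows tested, so the share of called members is near the background. The test was limma on log2(FPKM + 1) with Benjamini-Hochberg adjustment over those rows and a threshold of 0.05, and log2 differences below are KO minus WT on that scale, which understates changes of low values. Higher calls made up 33.3% of members and 19.3% of all rows, and lower calls 12.5% and 18.4%. Among integrins, 6 of 16 rose and 1 fell, with a median log2 difference of 0.47; among laminins, 2 of 8 rose and 2 fell, with a median of 0.05; the median over all rows was -0.01. The KO and WT libraries did not overlap for 13 of the 24 members (54.2%), against 55.1% of all rows. KO lay above WT for 9 of 24 members and below for 4 of 24, against 3460 (27.3%) and 3538 (27.9%) of all 12691 rows. For a single gene, the exact two-sided permutation test of 3 against 3 libraries cannot go below p = 0.1, so calls rest on the spread that limma shares across genes. Itga6, Itgb6 and Itgb5 kept their calls in each of 16 alternative fits, while 7 of the 11 called members lost theirs in at least 1. KO replicate 1 was also set alone against WT, taken to vary like the WT libraries. There the median log2 differences of integrins and laminins were 0.17 and -0.22. The laminin median was also below 0 in the fit with an added term for the mean acinar marker level (-0.11, called the acinar-adjusted fit), after quantile normalization (-0.02), when sums outside the acinar list were set equal (-0.02) and without KO replicate 2 (-0.09). Without WT replicate 1, 3 integrins were called higher and 1 laminin in each direction, and without WT replicate 3 laminins were called higher in 1 case and lower in 0. Calls over all rows fell in these fits too, to 2413 and 2427, against 4779 with all 6 libraries. The laminin count higher was 1 without WT replicate 2, KO replicate 2 or KO replicate 3 and 3 without KO replicate 1, and the laminin count lower was 1 without KO replicate 1 or KO replicate 3. Calls over all rows were 3219, 3541 and 4327 without WT replicate 2, KO replicate 2 and KO replicate 3, and 5969 without KO replicate 1.

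**Figure D1:**
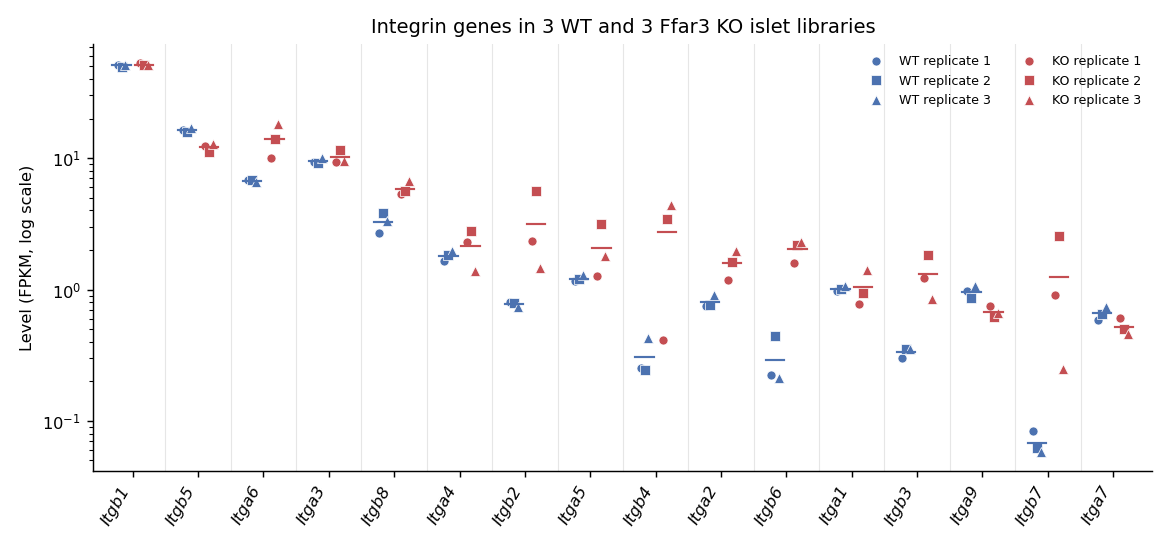
Levels of the 16 integrin genes in each library, in FPKM on a log axis, ordered by mean; points are libraries (circle, square and triangle for replicates 1, 2 and 3) and short lines are group means. Itgb1 is alike in all 6 libraries near 51.2 FPKM, Itgb5 lies lower in KO, and Itgb6 and Itgb3 lie higher in each KO library than in each WT library.

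The beta subunits that pair with Itgav changed in opposite directions. Itgb6, Itgb8 and Itgb3 rose in KO and Itgb5 fell, while the common partner Itgb1 was at nearly the same level in both groups. Itgb6, Itgb8 and Itgb3 started from low levels and Itgb5 from a higher one, so the summed FPKM of these 4 genes was 19.4 to 20.9 in WT and 20.4 to 22.6 in KO.

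Itgb6, an epithelial subunit whose pair with Itgav is known to activate latent TGF-beta, lies on chromosome 2 (60598292 to 60722643, minus strand, GRCm38). It was at 0.225, 0.442 and 0.213 FPKM in WT and at 1.58, 2.19 and 2.31 FPKM in KO. The lowest KO value was above the highest WT value, and the KO mean was 6.91 times the WT mean. Its log2 difference was 1.22 (SE 0.13, limma adjusted p = 0.0014), the smallest adjusted p of the 24 members, and 2.47 with a pseudocount of 0.1 in place of 1. In KO replicate 1 alone it was 1.0 (limma adjusted p = 0.0057), with adjusted p of 0.00074 to 0.012 over all alternatives. Summed FPKM of the duct markers, which mark another epithelium of the pancreas, was 1431, 1679 and 1971 in KO, and its part in the Itgb6 value was not tested.

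Itgb8, whose pair with Itgav also activates latent TGF-beta, lies on chromosome 12 (119158022 to 119238802, minus strand). It was at 2.67, 3.85 and 3.30 FPKM in WT and at 5.31, 5.60 and 6.67 FPKM in KO. All KO libraries were above all WT libraries, with a log2 difference of 0.69 (SE 0.12, limma adjusted p = 0.0073). In KO replicate 1 alone the difference was 0.57 and missed the threshold (limma adjusted p = 0.051, range over alternatives 0.0051 to 0.051).

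Itgb3, the subunit of the vitronectin receptor and of the platelet fibrinogen receptor, lies on chromosome 11 (104608000 to 104670476, plus strand). It was at 0.301, 0.355 and 0.353 FPKM in WT and at 1.22, 1.85 and 0.851 FPKM in KO. The groups did not overlap, and KO replicate 2 was the highest. The KO mean was 3.88 times the WT mean, and the log2 difference was 0.76 (SE 0.16, limma adjusted p = 0.012), or 1.63 with a pseudocount of 0.1. Without WT replicate 1 the limma adjusted p was 0.0502, the highest over the alternatives, which began at 0.0045. Summed FPKM of 7 platelet markers was 2.15 to 2.33 in WT and 1.69 to 2.65 in KO. The platelet partner Itga2b was at 0.211, 0.184 and 0.108 FPKM in WT and at 0.365, 0.339 and 0.244 FPKM in KO, below the minimum for the test.

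Itgb5, the other vitronectin-binding partner of Itgav, was the second most abundant member after Itgb1 and lies on chromosome 16 (33829665 to 33949338, plus strand). It was at 16.2, 15.8 and 17.0 FPKM in WT and at 12.3, 11.2 and 12.8 FPKM in KO. All KO libraries were below all WT libraries, at 0.74 times the WT mean. The log2 difference was -0.41 (SE 0.07, limma adjusted p = 0.0051) and lay between -0.52 and -0.36 in the alternatives, with adjusted p of 0.0033 to 0.031. Itgb1, the subunit shared by the largest number of integrin pairs, was at 50.8, 49.8 and 51.5 FPKM in WT and at 52.6, 51.0 and 51.1 FPKM in KO. Its log2 difference was 0.02 (SE 0.05, limma adjusted p = 0.7), and -0.09 after scaling to equal sums outside the acinar list (range of adjusted p 0.51 to 0.97).

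As a share of the summed FPKM of Itgb3, Itgb5, Itgb6 and Itgb8, Itgb5 made up 83.5%, 77.2% and 81.5% in WT and 60.3%, 53.7% and 56.5% in KO. Itgb6 made up 1.02% to 2.16% in WT and 7.74% to 10.5% in KO, Itgb8 13.8% to 18.9% and 26.0% to 29.5%, and Itgb3 1.55% to 1.74% and 3.77% to 8.87%. Each of the 4 shares was without overlap between the groups; this is a description of the same values and was not tested apart from them. The alpha partner Itgav, which is no member, rose from 17.4, 22.0 and 18.0 FPKM in WT to 38.1, 37.1 and 35.1 FPKM in KO (log2 difference 0.91, SE 0.09, limma adjusted p = 0.0011). In WT the Itgav level was close to that of the 4 beta subunits summed, and in KO it was above their sum in each library.

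**Figure D2:**
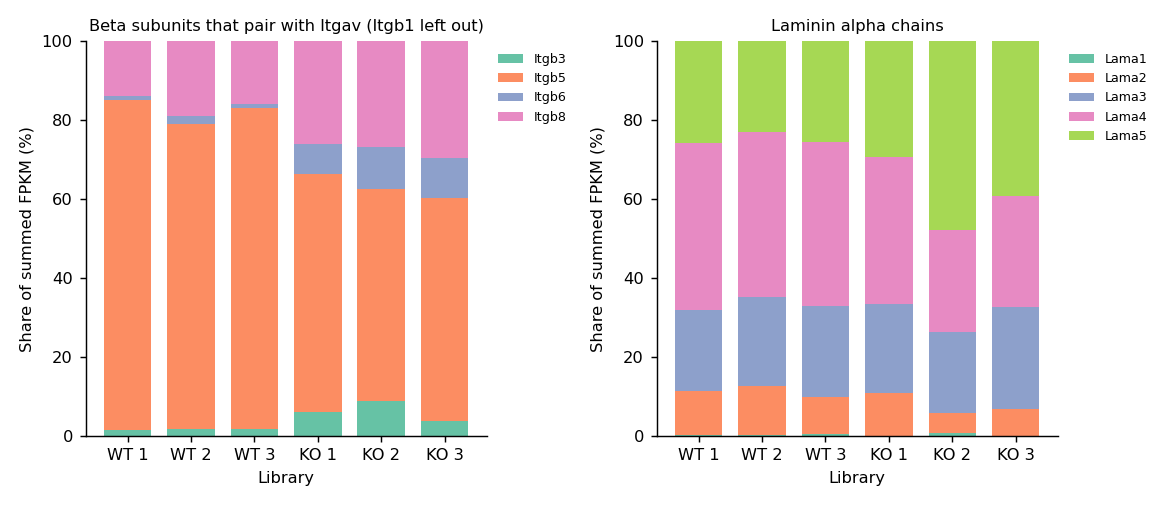
Shares of summed FPKM in each library (%), stacked to 100; left, the beta subunits that pair with Itgav other than Itgb1; right, the laminin alpha chains. The Itgb5 share is 77.2% or more in each WT library and 60.3% or less in each KO library, and the Lama4 share is lowest in KO replicates 2 and 3.

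Called members that move in opposite directions are shown here by the bases before their start, to let their promoters be compared. RefSeq promoter entries (build GRCm38.p6) were matched for 15 of the 24 members and 5 of the 11 called ones, and 4 of these had at least 100 bases before the outermost annotated exon of the gene. Each sequence runs 5′ to 3′ on the gene's strand and ends just before that exon. The windows are chr2:60722644-60722853 (minus strand) for Itgb6 and chr13:114932101-114932350 (minus strand) for Itga2, which rose, and chr16:33829415-33829664 (plus strand) for Itgb5 and chr12:31265043-31265233 (plus strand) for Lamb1, which fell. Capitals mark matches to the motifs searched, on either strand: the AP-1 motif TGANTCA, the cAMP response element half-site TGACG, the GC box GGGCGG and the TEAD motif GGAATG. A match on the other strand reads CGTCA for the half-site and CCGCCC for the GC box.
Itgb6: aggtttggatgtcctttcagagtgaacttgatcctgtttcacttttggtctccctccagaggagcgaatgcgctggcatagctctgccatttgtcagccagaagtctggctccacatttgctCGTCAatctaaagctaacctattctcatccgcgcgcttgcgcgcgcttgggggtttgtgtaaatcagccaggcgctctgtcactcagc
Itga2: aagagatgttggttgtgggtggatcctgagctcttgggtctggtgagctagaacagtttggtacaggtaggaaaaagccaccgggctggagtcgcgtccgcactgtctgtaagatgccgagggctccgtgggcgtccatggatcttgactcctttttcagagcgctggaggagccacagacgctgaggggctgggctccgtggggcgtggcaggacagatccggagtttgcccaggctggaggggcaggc
Itgb5: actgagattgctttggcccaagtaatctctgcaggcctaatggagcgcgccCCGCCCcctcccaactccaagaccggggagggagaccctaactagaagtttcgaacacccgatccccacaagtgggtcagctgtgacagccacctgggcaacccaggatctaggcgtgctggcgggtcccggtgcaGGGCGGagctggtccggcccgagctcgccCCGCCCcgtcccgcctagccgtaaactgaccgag
Lamb1: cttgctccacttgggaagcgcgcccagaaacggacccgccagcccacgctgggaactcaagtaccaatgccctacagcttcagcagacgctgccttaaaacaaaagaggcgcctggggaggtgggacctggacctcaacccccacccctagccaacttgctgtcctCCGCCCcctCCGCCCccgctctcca
The GC box had 3 matches in the Itgb5 window and 2 in the Lamb1 window, the windows of the genes that fell, and 0 in those of Itgb6 and Itga2. Over all 32851 promoter entries, 32.7% of 250-base windows and 23.1% of 191-base windows (the Lamb1 length) held it. The half-site TGACG had 1 match, in Itgb6, against 14.0% of all windows of 210 bases. The AP-1 and TEAD motifs, which 6.75% and 12.6% of 250-base windows held, were in none of the 4, and no match overlapped another. The G and C content was 52.4% in Itgb6, 60.8% in Itga2, 65.2% in Itgb5 and 63.9% in Lamb1. With 4 windows these matches are a description of letters only, and which start site the islet transcripts used was not measured.

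Among subunits that bind laminin, Itga6 rose and Itga3 and Itga7 were not called. Itga6 pairs with Itgb1 or Itgb4 and lies on chromosome 2 (71745616 to 71858416, plus strand). It was at 6.77, 6.86 and 6.57 FPKM in WT and at 10.1, 14.0 and 18.1 FPKM in KO. All KO libraries were above all WT libraries, and KO replicates 3 and 2, with the high acinar sums, were above KO replicate 1. The log2 difference was 0.93 (SE 0.18, limma adjusted p = 0.0091). It was 0.52 in KO replicate 1 alone (limma adjusted p = 0.0092) and 0.58 in the acinar-adjusted fit (0.0073), with a range of 0.00088 to 0.041 over the alternatives. Itga3, which pairs with Itgb1 and had the third highest level among numbered alpha and beta subunits in WT, was at 9.14 to 9.95 FPKM in WT and 9.35 to 11.6 FPKM in KO. The groups overlapped and the log2 difference was 0.08 (SE 0.09, limma adjusted p = 0.48). Itga7, the laminin receptor of muscle cells, was at 0.589 to 0.731 FPKM in WT and 0.457 to 0.612 FPKM in KO (limma adjusted p = 0.34).

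Itgb4 pairs only with Itga6 and anchors epithelial cells to laminin through keratin filaments in hemidesmosomes. It was at 0.251, 0.245 and 0.430 FPKM in WT and at 0.413, 3.44 and 4.41 FPKM in KO. KO replicate 1 lay within the WT range, and the other KO libraries were far above it. The log2 difference of 1.31 (SE 0.47) missed the threshold (limma adjusted p = 0.063). Without KO replicate 1 it was 1.91 (limma adjusted p = 0.00039), and in KO replicate 1 alone 0.11 (0.48, the highest of the alternatives). With a pseudocount of 0.1 it was 2.33 and called (limma adjusted p = 0.049), and in the acinar-adjusted fit it was 0.36 (0.12). The duct keratin Krt19 was at 0.825 to 1.12 FPKM in WT and at 3.35, 23.3 and 30.8 FPKM in KO, and the acinar sum was high in KO replicates 2 and 3. Unlike Itgb4, Krt19 was above each WT library in KO replicate 1 too. It is 1 of 14 duct markers, of which 12 were tested and 3 were called, all higher (25%, against 37.7% of all rows). The part of these cells in the Itgb4 value was not tested.

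The collagen receptors Itga1 and Itga2, neighbours on chromosome 13, differed in their calls. Itga2, found on epithelial cells and platelets (114833081 to 114932100, minus strand), was at 0.744, 0.759 and 0.912 FPKM in WT and at 1.19, 1.62 and 1.98 FPKM in KO. The groups did not overlap, and the order of the KO libraries was that of their acinar sums. The log2 difference was 0.51 (SE 0.13, limma adjusted p = 0.022), or 0.88 with a pseudocount of 0.1. The call was lost without WT replicate 1, 2 or 3 or KO replicate 2 (limma adjusted p of 0.08, 0.069, 0.057 and 0.058), in KO replicate 1 alone (0.28, limma adjusted p = 0.087) and in the acinar-adjusted fit (0.31, limma adjusted p = 0.094); the range over alternatives began at 0.0053. Itga1 was at 0.980 to 1.07 FPKM in WT and at 0.769, 0.942 and 1.42 FPKM in KO, on both sides of the WT range (log2 difference 0.01, limma adjusted p = 0.97). Whether Itga1 and Itga2 differ in their response was not tested.

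The remaining alpha subunits with numbers were not called. The fibronectin receptor subunit Itga5 was at 1.16 to 1.28 FPKM in WT and at 1.28, 3.14 and 1.80 FPKM in KO, so that only KO replicate 1 overlapped WT. Its log2 difference was 0.43 (SE 0.21, limma adjusted p = 0.14), and without KO replicate 1 it was called at 0.62 (0.026, range over alternatives 0.026 to 0.76). Itga9, which binds tenascin and pairs with Itgb1, was at 0.974, 0.859 and 1.05 FPKM in WT and at 0.753, 0.615 and 0.661 FPKM in KO. Its groups did not overlap, with KO lower, and the log2 difference of -0.23 (SE 0.09) missed the threshold (limma adjusted p = 0.096). Itga4, which pairs with Itgb1 or Itgb7, was at 1.65 to 1.96 FPKM in WT and at 2.29, 2.77 and 1.39 FPKM in KO (limma adjusted p = 0.53). Exons of Itga4 overlap those of Cerkl on the other strand, and the sources used here do not give the strand setting, so reads of these genes may not be told apart.

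Of the leukocyte subunits, Itgb2 rose, and Itgb7, Itgal and Itgax were not called. Itgb2, the beta subunit of all leukocyte-specific Itgal, Itgam and Itgax pairs, lies on chromosome 10 (77530252 to 77565708, plus strand). It was at 0.801, 0.783 and 0.736 FPKM in WT and at 2.32, 5.61 and 1.45 FPKM in KO. All KO libraries were above all WT libraries, with KO replicate 2 the highest. The log2 difference was 1.09 (SE 0.33, limma adjusted p = 0.038), 0.69 without KO replicate 2 (limma adjusted p = 0.023) and 0.91 in KO replicate 1 alone (0.003). The call was lost without WT replicate 1, 2 or 3 (limma adjusted p of 0.1, 0.096 and 0.11), with a robust variance prior (0.061), with no filter (0.066), with equal sums outside the acinar list (0.053) or outside acinar and insulin rows (0.052), and in the acinar-adjusted fit (0.11), while the differences in these fits stayed between 1.03 and 1.11.

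Itgb7, the subunit of lymphocyte receptors for gut vessels and epithelium, was at 0.0841, 0.0623 and 0.0585 FPKM in WT and at 0.905, 2.56 and 0.250 FPKM in KO. The groups did not overlap, and KO replicate 2 was again the highest. The log2 difference of 0.93 (SE 0.34) was not called (limma adjusted p = 0.07), but was at 1.28 without KO replicate 3 (0.014), at 0.83 in KO replicate 1 alone (0.003) and at 2.54 with a pseudocount of 0.1 (0.027); the range over alternatives ended at 0.16. Itgal, the alpha partner of Itgb2 on lymphocytes, was at 0.127 to 0.172 FPKM in WT and at 0.983, 2.29 and 0.314 FPKM in KO (log2 difference 0.83, limma adjusted p = 0.068). Itgax, a partner on dendritic cells and macrophages, was at 0.745 to 0.931 FPKM in WT and at 1.01, 1.62 and 0.608 FPKM in KO (limma adjusted p = 0.57).

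In the KO libraries Itgb2, Itgb7, Itgal and the lymphocyte marker sum had the same order, with KO replicate 2 above KO replicate 1 and KO replicate 3 the lowest. The macrophage marker sum, Itgax, Itgb3 and Itga4 had this order too, so it is not particular to lymphocyte genes. Of 13 lymphocyte markers, 11 were tested and 5 rose (45.5% called, against 37.7% of all rows). The T cell receptor component Cd3e was listed at 0 in all WT libraries and was at 1.30, 2.01 and 0.127 FPKM in KO. The antibody joining chain Igj was at 0 to 0.413 FPKM in WT and 47.3, 75.9 and 6.74 FPKM in KO. Other immune genes were not raised as clearly in KO replicate 3. The leukocyte gene Ptprc was at 0.902, 0.671 and 1.07 FPKM in WT and at 3.03, 6.64 and 0.577 FPKM in KO. Its level in KO replicate 3 was thus below each WT library, unlike that of Itgb2. Cd79a was at 15.8, 28.0 and 7.60 FPKM in KO, against up to 7.42 FPKM in WT. Of 11 macrophage markers, 9 were tested, 0 rose and 1 fell (11.1% called). Their sums were 103 to 117 FPKM in WT and 133, 202 and 79.6 FPKM in KO. The part of immune cells in the Itgb2 and Itgb7 values was not tested.

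**Figure D3:**
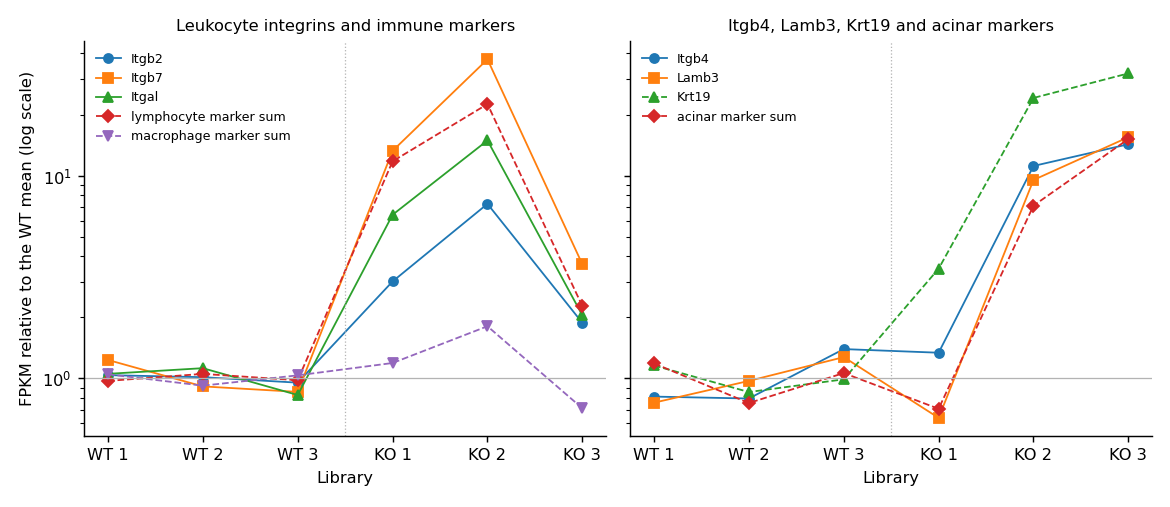
FPKM in each library divided by the WT mean, on a log axis; solid lines are integrin and laminin genes and dashed lines are Krt19 or sums of marker lists, and lines only join the values of one quantity. Left, Itgb2, Itgb7, Itgal and the lymphocyte and macrophage sums are highest in KO replicate 2 and lowest of the KO libraries in KO replicate 3. Right, Itgb4, Lamb3 and the acinar sum are near the WT mean in KO replicate 1 and high in KO replicates 2 and 3.

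Among laminin chains, Lamc1 rose. Lamc1, the gamma chain of most laminins, lies on chromosome 1 (153218922 to 153332786, minus strand) and was at 4.81, 5.02 and 5.09 FPKM in WT and at 5.48, 7.04 and 7.43 FPKM in KO. The groups did not overlap, but KO replicate 1 was close to WT, and the log2 difference of 0.35 (SE 0.11, limma adjusted p = 0.039) was 0.12 in KO replicate 1 alone (0.34) and 0.16 in the acinar-adjusted fit (0.17). The Lamc1 call was also lost without WT replicate 1, 2 or 3 (limma adjusted p of 0.12, 0.096 and 0.1), without KO replicate 2 or 3 (0.11 and 0.089), with no filter (0.067) and with equal sums outside the acinar list (0.096).

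Lamb3 and Lama3, chains of epithelial laminins, were not called. Lamb3 was at 0.133, 0.17 and 0.223 FPKM in WT and at 0.112, 1.67 and 2.71 FPKM in KO. KO replicate 1 was below each WT library, and the other KO libraries were far above, the same 2 libraries in which Itgb4 was high. The log2 difference was 0.92 (SE 0.40, limma adjusted p = 0.11), 1.42 without KO replicate 1 (0.0014) and -0.08 in KO replicate 1 alone (0.52). It was 0.10 in the acinar-adjusted fit (limma adjusted p = 0.6, the highest of the alternatives) and 1.90 with a pseudocount of 0.1 (0.13). Krt19 and the acinar sum, given above, were high in the same libraries. In KO replicate 1, where Lamb3 was below each WT library, Krt19 was above each of them (3.35 FPKM). The part of those cells was not tested. Lama3 was at 0.694 to 0.916 FPKM in WT and at 0.496 to 0.807 FPKM in KO (log2 difference -0.10, limma adjusted p = 0.49). In KO replicate 1 both Lamb3 and Lama3 were below each WT library.

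Of the chains found in vessel and islet basement membranes, Lama4 and Lamb1 fell, Lamc1, described above, rose, and Lama5 was not called. Lama4, the alpha chain of the endothelial laminin-411, lies on chromosome 10 (38965515 to 39110188, plus strand) and was at 1.43, 1.51 and 1.66 FPKM in WT and at 0.829, 1.02 and 0.824 FPKM in KO. All KO libraries were below all WT libraries, at 0.581 times the WT mean. The log2 difference was -0.42 (SE 0.09, limma adjusted p = 0.013), -0.47 in KO replicate 1 alone (0.022) and -0.72 with a pseudocount of 0.1 (0.014). Without WT replicate 3 it was -0.39 and missed the threshold (limma adjusted p = 0.059, range over alternatives from 0.0064). Lamb1, the beta chain of laminin-411 and laminin-511, was at 2.80, 2.37 and 2.94 FPKM in WT and at 1.81, 2.19 and 1.97 FPKM in KO, without overlap. Its log2 difference was -0.31 (SE 0.10, limma adjusted p = 0.042). The call was lost without WT replicate 1 or 3 (limma adjusted p of 0.13 and 0.14), without KO replicate 1 or 3 (0.074 and 0.076), in KO replicate 1 alone (-0.39, 0.06), in the acinar-adjusted fit (0.066), with no filter (0.069), with equal sums outside the acinar and insulin rows (0.06) and with the replicate block (0.095).

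Of 14 endothelial markers, 13 were tested, 3 fell and 1 rose (30.8% called, against 37.7% of all rows). Their sums in WT and KO, given above, overlapped. The endothelial junction genes Cdh5 and Pecam1 were at 5.45 to 6.82 and 10.9 to 12.5 FPKM in WT and at 8.88 to 12.7 and 11.6 to 16.0 FPKM in KO, while the median log2 difference of the 13 tested markers was -0.20. Of 14 stellate cell and pericyte markers, 10 were tested, 3 fell and 0 rose (30% called). Pdgfrb was at 1.23 to 1.79 FPKM in WT and 0.803 to 0.965 FPKM in KO. The part of these cells in the Lama4 and Lamb1 values was not tested.

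The remaining laminin members were not called, and their groups overlapped. Lama5, the alpha chain of laminin-511, was at 0.867, 0.835 and 1.02 FPKM in WT and at 0.647, 1.88 and 1.15 FPKM in KO, with KO replicate 1 below and the other KO libraries above the WT range (log2 difference 0.18, SE 0.20, limma adjusted p = 0.47). Lamb2, the beta chain of muscle and kidney basement membranes, was at 1.99 to 2.54 FPKM in WT and at 1.67 to 2.80 FPKM in KO (log2 difference -0.08, limma adjusted p = 0.71). Of the summed FPKM of the 5 laminin alpha chains, Lama4 made up 41.5% to 42.5% in WT and 37.4%, 26.0% and 28.2% in KO, and Lama5 23.1% to 25.7% and 29.2%, 47.7% and 39.2%. Summed FPKM of the alpha chains was 3.37 to 3.99 in WT and 2.21 to 3.94 in KO.

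**Figure D4:**
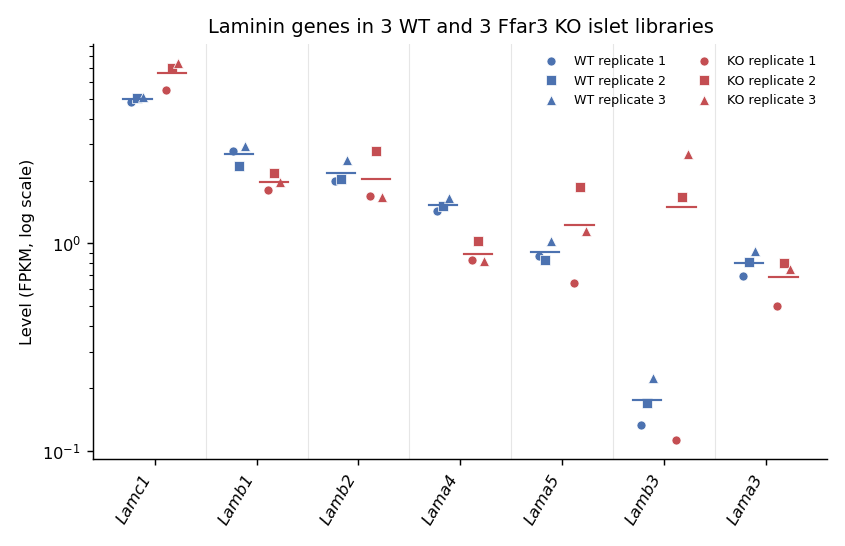
Levels of 7 laminin genes in each library, in FPKM on a log axis, ordered by mean; points are libraries (circle, square and triangle for replicates 1, 2 and 3) and short lines are group means. Lamc1 lies higher and Lama4 and Lamb1 lower in each KO library than in each WT library, and Lamb3 is low in KO replicate 1 and high in KO replicates 2 and 3.

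**Figure D5:**
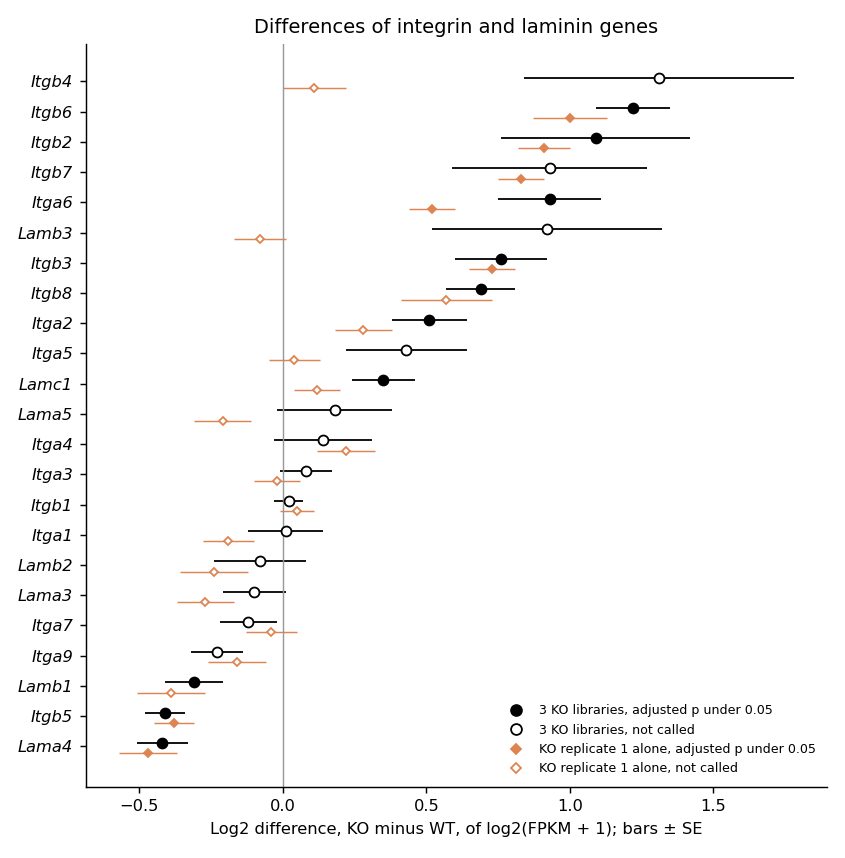
Log2 differences, KO minus WT, of log2(FPKM + 1) for 23 members with standard errors; circles use the 3 KO libraries and diamonds KO replicate 1 alone against WT, and filled marks have a limma adjusted p under 0.05. Itgb6, Itgb2, Itga6, Itgb3, Itgb5 and Lama4 are filled in both, and Itgb4 and Lamb3 are near 0 in KO replicate 1.

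Of the 31 genes matched by symbol, 7 had a mean below 0.5 FPKM and were not tested. The members just above the minimum were Itga7, Itgb7 and Lama3, with means of 0.591, 0.653 and 0.747 FPKM, and the genes just below it were Itga10, Lama2 and Itga2b, with means of 0.407, 0.309 and 0.242 FPKM. Lama2, the laminin alpha chain of muscle and nerve, was at 0.376, 0.457 and 0.374 FPKM in WT and at 0.242, 0.205 and 0.201 FPKM in KO, without overlap. The cartilage collagen receptor Itga10 was at 0.353 to 0.538 FPKM in WT and 0.292 to 0.379 FPKM in KO. Lamc3, Itga8, Lama1 and Itga11 had means of 0.1, 0.0647, 0.00886 and 0.00829 FPKM, and Lama1 and Itga11 were each listed at 0 in 2 libraries.

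Among genes that act with integrins inside the cell, a list of actin linkers, adaptors, kinases and other signalling genes, more rose than fell. Of 42 such genes, 37 were tested, 15 rose and 5 fell (54.1% called, against 37.7% of all rows), with a median log2 difference of 0.31. The talin genes Tln1 and Tln2 were not called (limma adjusted p of 0.12 and 0.11), nor were the linkers Ilk and Parva (0.25 and 0.23). Vcl (vinculin), which joins talin to actin, was at 7.06, 8.49 and 5.97 FPKM in WT and at 43.8, 46.7 and 50.0 FPKM in KO (log2 difference 2.56, SE 0.11, limma adjusted p = 0.00023). The kindlin gene Fermt2, which activates beta subunits, rose from a mean of 20.8 FPKM (SD 2.41, n = 3) in WT to 34.0 FPKM (SD 1.21, n = 3) in KO (limma adjusted p = 0.002). The actin crosslinker Actn4 rose from 45.0 ± 0.704 to 77.8 ± 3.15 FPKM (SD, n = 3 per group; limma adjusted p = 0.00042). The adaptor genes Nedd9 and Tns3 fell from 12.5 ± 0.980 to 7.33 ± 0.682 and from 18.3 ± 0.787 to 12.2 ± 0.738 FPKM (n = 3 per group; limma adjusted p of 0.002 and 0.0017). Under equal sums outside the acinar list, 9 of the list were called higher and 6 lower, and in the acinar-adjusted fit 10 and 3. These fits called 21.9% and 21.2% of all rows.

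Few partners of laminin in the basement membrane were called. Of 26 such genes (nidogens, perlecan, agrin, type IV collagens and others), 25 were in the data and 16 were tested; 0 rose and 1 fell (6.25% called, against 37.7% of all rows), with a median log2 difference of 0.03. The gene that fell was Egflam, which encodes the dystroglycan ligand pikachurin, at 1.46, 2.04 and 2.01 FPKM in WT and 0.788, 0.668 and 0.478 FPKM in KO (log2 difference -0.78, SE 0.13, limma adjusted p = 0.005), or -1.39 with a pseudocount of 0.1. Of 8 tested hemidesmosome and tetraspanin genes, 2 rose and 0 fell (25% called, against 37.7% of all rows). Plec (plectin), which ties Itgb4 to keratin, was at 3.19, 3.16 and 3.30 FPKM in WT and at 6.35, 9.07 and 9.87 FPKM in KO (log2 difference 1.14, limma adjusted p = 0.0021), higher also in KO replicate 1, where Itgb4 lay within the WT range. The tetraspanin gene Cd82 rose from 32.7 ± 1.97 to 54.9 ± 3.25 FPKM (n = 3 per group; limma adjusted p = 0.00092).

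Of 11 tested laminin receptors other than integrins, 3 rose and 1 fell (36.4% called), a share near the 37.7% of all rows. The syndecan genes Sdc4 and Sdc1, which encode heparan sulfate carriers, rose: Sdc4 was at 59.0 to 70.5 FPKM in WT and 94.2 to 119 FPKM in KO (limma adjusted p = 0.0033), and Sdc1 at 0.692 to 0.747 FPKM in WT and 2.29, 7.44 and 12.9 FPKM in KO (log2 difference 2.09, limma adjusted p = 0.014). The Sdc1 difference was 0.94 in KO replicate 1 alone (limma adjusted p = 0.0026) and 1.13 in the acinar-adjusted fit, and its call was lost without WT replicate 1 or 3 (0.054 and 0.053). The sarcoglycan genes Sgcd and Sgce went from 2.47 ± 0.581 to 3.91 ± 0.119 and from 4.05 ± 0.499 to 2.62 ± 0.504 FPKM (n = 3 per group; limma adjusted p of 0.017 and 0.023). Neither call held without WT replicate 2 or 3 (limma adjusted p of 0.062 and 0.069 for Sgcd, 0.079 and 0.086 for Sgce), and that of Sgce was lost without KO replicate 2 (0.061). In KO replicate 1 alone the limma adjusted p was 0.075 for Sgcd and 0.17 for Sgce (log2 difference -0.27), in the acinar-adjusted fit 0.059 and 0.11, with equal sums outside the acinar list 0.067 for Sgcd, and with the replicate block 0.064 for Sgce.

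Of 12 tested integrin ligands outside the laminins, 1 rose and 1 fell (16.7% called, against 37.7% of all rows). E-cadherin (Cdh1), the epithelial adhesion protein that Itgae pairs bind, rose from 91.3 ± 1.97 to 151 ± 19.8 FPKM (n = 3 per group; log2 difference 0.71, limma adjusted p = 0.0028). Nephronectin (Npnt), a ligand of the Itga8 pair, was at 7.17, 6.90 and 7.53 FPKM in WT and at 6.44, 4.51 and 4.27 FPKM in KO (log2 difference -0.45, limma adjusted p = 0.036). The Npnt difference was -0.14 in KO replicate 1 alone (limma adjusted p = 0.27) and the call was lost without any 1 of WT replicates 1, 2 and 3 or KO replicates 2 and 3 (0.1, 0.08, 0.12, 0.1 and 0.081) with the replicate block (0.052), in the acinar-adjusted fit (-0.21, 0.12), with no filter (0.063) and with equal sums outside the acinar list (0.067) or outside acinar and insulin rows (0.066). Of the 6 alpha subunits with a letter, 3 were tested and Itgav, described above, was the 1 called.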

How the data were processed

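RNA sequencing of islets from 3 WT and 3 KO libraries was used, grouped by sample titles and genotype labels. TopHat2 2.0.8b, Cuffdiff 2.1.1 and build mm10 are named per the submitters' processing notes; the sources used here give no annotation, strand setting, filter or scaling. The deposited values were taken as FPKM, the unit Cuffdiff writes, since the files name none. Cuffdiff estimates how reads divide between overlapping genes and near copies.

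The members and gene lists were chosen with earlier results of these data known. Rows with a mean of at least 0.5 FPKM (12691 of 23179) were tested on log2(FPKM + 1) with limma 3.58.1 (mean-variance trend; group alone in the model, leaving 4 residual degrees of freedom; two-sided; Benjamini-Hochberg; threshold 0.05) in R 4.3.3. The method was tested on simulated data. Members were to be named, and of each pathway list the up to 6 called genes of smallest p; 1 member and 1 list gene stay in the counts but are not reported here. 2 list symbols (Tns2 and Adgre1) were matched through RefSeq synonyms and 2 had no match. The acinar covariate is the mean log2 level of the acinar markers. The fit with equal sums outside acinar and insulin rows was added after seeing the data. Positions are from GENCODE M21 (GRCm38, which mm10 denotes) and promoters from RefSeq. Depth is unknown, so no counting intervals are given. Python 3.11.15, pandas 2.3.3 and matplotlib 3.10.9 were used.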

Additional observations from a re-analysis of the deposited data

How the results depend on the processing

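No called member reversed in any of the 16 alternatives: 4 of 11 kept their calls in all of them and 7 lost theirs in at least 1, and 4 of 13 members not called passed in at least 1. The count over all genes went from 4779 to 3064 in KO replicate 1 alone, 2685 with the acinar covariate and 2785 when sums outside the acinar list were set equal, and ranged from 2413 (without WT replicate 1; 2427 without WT replicate 3) to 5969 (without KO replicate 1) with 1 library left out. Equal sums outside the acinar list moved the median of all rows by -0.10 and the higher share of calls from 51.3% to 39.4%, against 51.2% when insulin rows were left out too. With 1 library left out, integrins higher ranged from 3 to 8, laminins higher from 1 to 3 and lower from 0 to 2, and the integrin and laminin medians from 0.35 to 0.63 and -0.09 to 0.19. Laminins higher were 1 in KO replicate 1 alone, with the acinar covariate, with no filter and when sums outside the acinar list were equal, and laminins lower were 1 in the first 3 of these, when sums outside acinar and insulin rows were equal, and with the replicate block. The integrin median was 0.17 in KO replicate 1 alone, 0.30 with the acinar covariate and 0.73 with a pseudocount of 0.1, and the laminin median -0.22 in KO replicate 1 alone, -0.11 with the acinar covariate and -0.02 both with quantile normalization and when sums outside the acinar list were equal. The same-numbered libraries did not deviate together (correlations of -0.2, -0.0806 and 0.0231). With 3 libraries per group this cannot exclude a shared isolation date or batch, so whether the numbers pair samples is unknown. The replicate block gave 3880 calls. Changed signs, all of values not called: Itga1 -0.19 in KO replicate 1 alone, -0.18 with the acinar covariate, -0.06 and -0.01 with equal sums outside acinar rows and outside acinar and insulin rows, -0.01 with a pseudocount of 0.1, -0.09 with quantile normalization, and -0.12 to 0.10 with 1 library left out (-0.01 without WT replicate 1); Itga3 -0.02 in KO replicate 1 alone, -0.03 with equal sums outside acinar rows and -0.01 (without KO replicate 2) to 0.13 with 1 library left out; Itga4 -0.005 (without KO replicate 2) to 0.32; Itgb1 -0.09 with equal sums outside acinar rows; Lama5 -0.21 in KO replicate 1 alone, -0.07 with the acinar covariate and -0.02 (without KO replicate 2) to 0.38; Lamb2 -0.25 to 0.01, with 0.001 and 0.01 without KO replicates 1 and 3; Lamb3 -0.08 in KO replicate 1 alone. The causes were not tested. Unknown depth limits the lowest values, those of KO replicate 3 most.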
